A study of Solanum lycopersicum with 9 samples.

Results

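In young tomato locular tissue, 59 genes were scarce in the wild type and clearly counted in both lines edited in SlZFP2. They were chosen by their measured levels: below 1 CPM (a gene's count scaled to a library total of 1000000) in each of 3 wild-type (WT) libraries, and 2 CPM or more in each of 6 line libraries. They make up 59 of the 34075 genes listed in the count table. Because all 9 libraries entered this choice, the difference between lines and WT is described below, and no test of it is read as support. The groups were c2.11 (3 libraries) and c2.5 (3 libraries), both CRISPR lines of SlZFP2, and WT (3 libraries). All are in the dwarf cultivar Micro-Tom. Each library pooled the hand-dissected locular tissue of 6 fruits harvested 6 days after anthesis, with developing seeds removed. No source used here gives the edited bases, the zygosity of the lines or whether pools came from separate plants, so p-values measure the spread between these pools, which may be technical.

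SlZFP2 is a C2H2 zinc finger protein, a class of transcription factor that binds DNA through finger-like loops held by zinc. In tomato it is known as a repressor of genes of abscisic acid synthesis that acts in fruit growth and ripening. Locular tissue grows out from the placenta, surrounds the seeds and later turns into the gel of the fruit. A gene with few counts in such a tissue may be made at a low level in many cells or at a higher level in a few, and counts from bulk tissue cannot tell fewer cells of a type from less RNA per cell.

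The 9 libraries held 19963325 to 20727310 counts, so that 1 CPM stood for about 20 counts, and 20 counts carry an exact Poisson 95% interval of 12.2 to 30.9 (counting error only). SlZFP2 itself, taken as Solyc07g053570.4 from general knowledge, had 1.68, 2.36 and 1.498 CPM in c2.11, 1.55, 0.751 and 1.48 CPM in c2.5, and 1.04, 0.643 and 0.547 CPM in WT. In the edgeR fit described below its log2 change of both lines minus WT was 0.76 ± 0.31 (SE, adjusted p = 0.0487). With single libraries left out the adjusted p ran from 0.0176 to 0.173, and removing any of 6 libraries lost the call (numbers 1 and 2 of c2.11, 1 and 3 of c2.5, 2 and 3 of WT). It did not meet the rule, and an edit of a few bases need not change a count, so these values do not check the edit. The table gives identifiers alone, and 0 of them were found in the RefSeq gene table of assembly SLM_r2.1. A list of 117 identifiers with names known from the tomato literature, written from general knowledge, had 115 in the table. It covered genes of ripening, ethylene, gibberellin, abscisic acid and jasmonate, and of carotenoid, flavonoid and glycoalkaloid synthesis. It also covered defence, sugar use, cell walls and fruit size. Of its genes 0 were among the 59, so no gene below carries a name or a function, and no sequence is shown. The 59 are few of the 34075 listed genes, and nothing is read from that 0. In the list 36 identifiers were below 1 CPM in each WT library, and 5 of these had 2 CPM or more in some line library. In the same list, 3 seed and ovule identifiers summed to at most 0.0501 CPM in any library, and 2 of the 3 were at 0 in all 9. The 4 epidermis identifiers summed to 137 to 173 CPM in c2.11, 144 to 156 CPM in c2.5 and 90.3 to 112 CPM in WT, with none at 0 in any genotype. The 1 trichome identifier had 13.8 to 15.8, 13.7 to 15.9 and 8.20 to 11.2 CPM in c2.11, c2.5 and WT, and 4 locule and ovule identity identifiers summed to 683 to 705, 668 to 688 and 486 to 499.7 CPM. In the edgeR fit described below 1 of the 3 tested epidermis identifiers was called higher in both lines. So were the trichome identifier and 3 of the 4 identity identifiers, beside 28.5% of all tested genes. The epidermis identifiers Solyc01g091630.3 and Solyc10g005330.3 were not called, with log2 changes of 0.04 and -0.03. The CPM sums are scaled to library totals, on which the median log2 change of all tested genes was 0.29. The part of these shifts in the result was not tested.

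The 59 genes had few counts even in the lines. Their mean over the 6 line libraries ran from 2.28 to 19.5 CPM, with a median of 3.46 CPM and quartiles of 2.91 and 4.91 CPM. By that mean, 17 genes lay between 2 and 3 CPM, 31 between 3 and 5, 8 between 5 and 10, and 3 above 10. In counts, single values ran from 41 to 430 in c2.11, from 41 to 502 in c2.5 and from 1 to 20 in WT. The median of their line means exceeded that of 37.8% of all genes with a count in the lines. CPM take no account of gene length, which was not used here, so values of different genes compare counts and not transcript levels.

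None of the 59 genes was without counts in WT. All 177 of their WT values were above 0, with WT means of 0.0660 to 0.925 CPM and a median of 0.594 CPM. In each WT library 14 of them stayed below 0.5 CPM, and 1 below 0.1 CPM. Of the 9994 genes scarce in WT that had no WT count at all, 8494 had no count in any library. The highest value that any of the 9994 held in every line library was 0.495 CPM. The genes are therefore described here by their level and not as switched on.

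**Figure D1:**
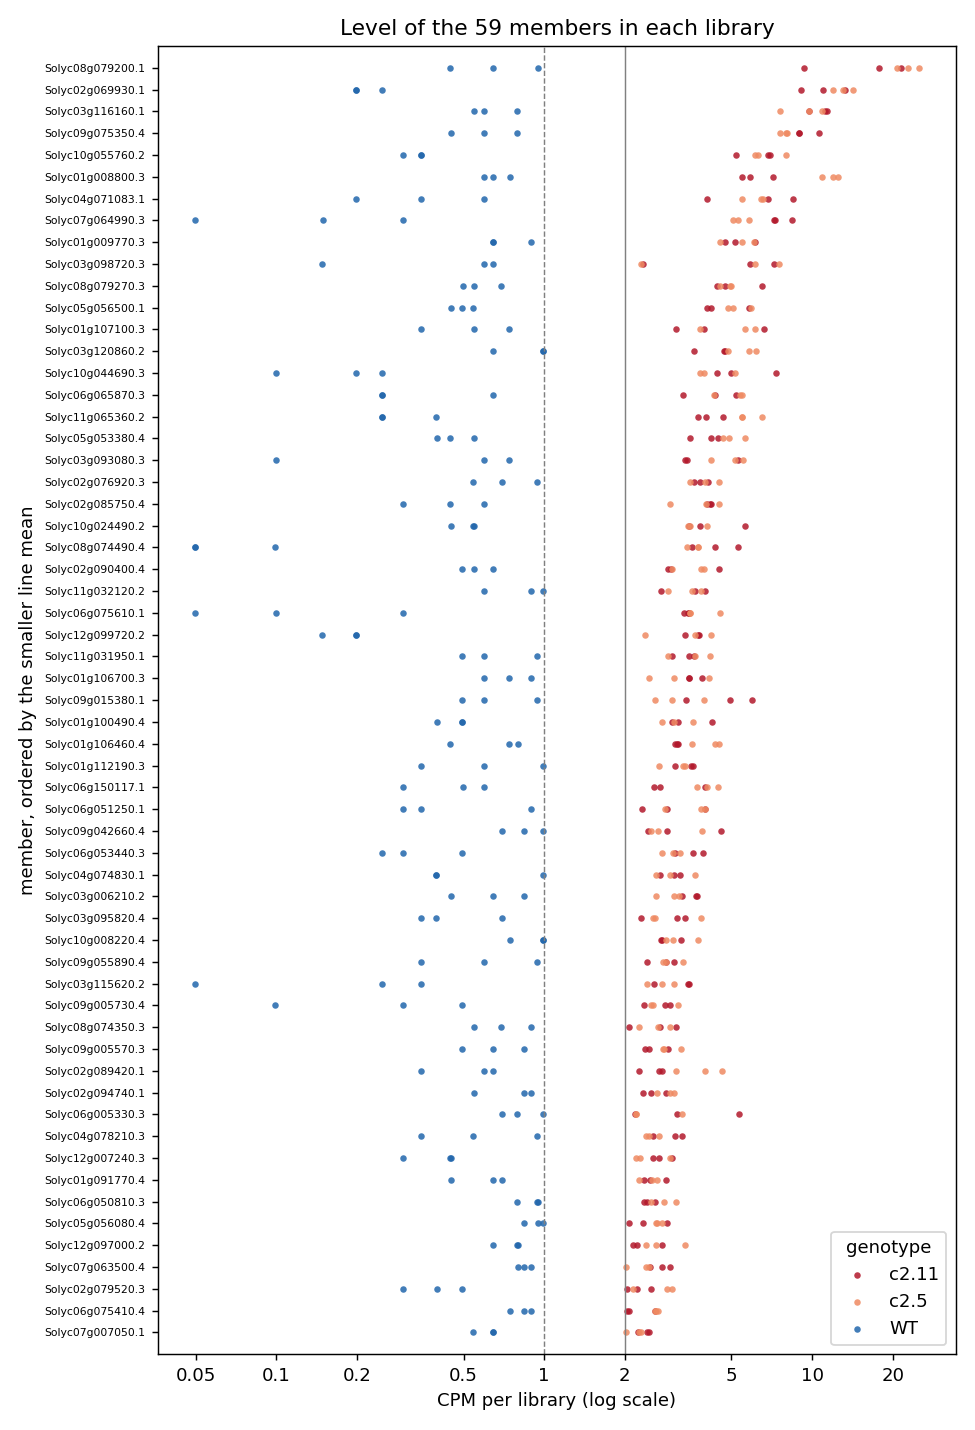
CPM per library (log scale) of each of the 59 genes in c2.11, c2.5 and WT, 1 point per library, ordered by the smaller of the 2 line means. The dashed line marks 1 CPM and the solid line 2 CPM, the limits that chose the genes. The points of the lines reach from 2.03 to 25.1 CPM, and those of WT lie below 1 CPM.

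The gap between lines and WT differed widely among the genes. Over the 59 genes the mean line level was 2.76 to 60.9 times the mean WT level, with a median of 6.46. The lowest line library was 2.10 to 36.7 times the highest WT library, and this ratio was below 4 in 29 genes, between 4 and 8 in 19 and at least 8 in 11. The rule set this ratio above 2. It was smallest in Solyc05g056080.4, singled out after its values were seen. In an edgeR quasi-likelihood fit over all 19358 genes that passed the filter on low counts, the log2 change of both lines minus WT ran from 1.18 to 5.53 over the 59 genes, with a median of 2.40. The median of all tested genes was 0.01. All 59 passed that filter and all 59 were called higher, beside 28.5% of all tested genes (edgeR with Benjamini-Hochberg adjustment, threshold 0.05). That count follows from the choice of the genes and nothing is read from it.

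The highest CPM of the group were those of Solyc08g079200.1 on chromosome 8. It had 17.7, 9.36 and 21.5 CPM in c2.11, 22.8, 25.1 and 20.7 CPM in c2.5, and 0.643, 0.445 and 0.944 CPM in WT. c2.11 replicate 2 was the low library of its line, and each line library lay above each WT library. The log2 change was 4.54 ± 0.39 (SE).

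Solyc02g069930.1 on chromosome 2 had the widest gap between its lowest line library and its highest WT library. It was counted at 10.9, 9.12 and 13.2 CPM in c2.11, at 11.97, 14.2 and 13.04 CPM in c2.5, and at 0.198, 0.198 and 0.248 CPM in WT. The WT values rest on 4 or 5 counts per library and were close to each other, and the lines overlapped. Its log2 change was 5.50 ± 0.21 (SE).

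Solyc03g116160.1 on chromosome 3 reached 11.2, 11.4 and 9.73 CPM in c2.11 and 7.58, 10.9 and 9.78 CPM in c2.5, against 0.544, 0.791 and 0.596 CPM in WT. Solyc09g075350.4 on chromosome 9 averaged 9.50 ± 0.952 CPM in c2.11, 7.89 ± 0.243 CPM in c2.5 and 0.611 ± 0.173 CPM in WT (SD, n = 3 libraries each). The lines overlapped for Solyc03g116160.1. For Solyc09g075350.4 the c2.11 libraries all lay above the c2.5 libraries, a difference that did not pass the threshold (edgeR adjusted p = 0.329). Their log2 changes against WT were 3.68 ± 0.19 and 3.54 ± 0.16 (SE).

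Solyc10g055760.2 on chromosome 10 averaged 6.34 ± 0.999 CPM in c2.11, 6.80 ± 1.05 CPM in c2.5 and 0.330 ± 0.0289 CPM in WT (SD, n = 3 libraries each). Solyc04g071083.1 on chromosome 4 had 8.47, 6.85 and 4.04 CPM in c2.11, 6.53, 6.46 and 5.48 CPM in c2.5, and 0.594, 0.198 and 0.348 CPM in WT. Solyc01g009770.3 on chromosome 1 averaged 5.35 ± 0.719 CPM in c2.11, 5.36 ± 0.765 CPM in c2.5 and 0.727 ± 0.142 CPM in WT. All 3 had line libraries that overlapped between c2.11 and c2.5, and Solyc04g071083.1 was spread more widely in c2.11 than in c2.5. Their log2 changes against WT were 4.01 ± 0.22 for Solyc10g055760.2, 3.76 ± 0.34 for Solyc04g071083.1 and 2.60 ± 0.19 for Solyc01g009770.3 (SE).

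Solyc08g074490.4 on chromosome 8 had the largest ratio of mean line level to mean WT level. It was not among the 10 genes with the highest CPM and was singled out after its values were seen. It had 4.36, 3.57 and 5.29 CPM in c2.11, 3.74, 3.41 and 3.76 CPM in c2.5, and 0.0990, 0.0495 and 0.0497 CPM in WT. Its WT libraries held 1 or 2 counts each, 4 in all, against 487 in the 6 line libraries. The ratio of the pooled levels was 60.8, a value that rests on those 4 counts.

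A few genes varied widely between libraries of the same line. Solyc03g098720.3 on chromosome 3 had 5.85, 7.19 and 2.35 CPM in c2.11, 7.53, 2.30 and 6.13 CPM in c2.5, and 0.148, 0.593 and 0.646 CPM in WT. Its highest line library was 3.27 times its lowest, the widest ratio of the 59, with c2.11 replicate 3 and c2.5 replicate 2 both low. The next widest were Solyc08g079200.1, described above, and Solyc06g005330.3 on chromosome 6, which ran from 2.18 to 5.34 CPM over the line libraries and had at most 0.989 CPM in WT. Over all 59 genes the median ratio of highest to lowest line library was 1.502.

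Summed over the 59 genes, libraries of a line lay close together. Their summed CPM was 253, 242 and 258 in c2.11, 264, 261 and 269 in c2.5, and 35.3, 32.1 and 30.8 in WT. The 3 genes with the highest CPM held 16.2% of the sum over the lines. The library c2.11 replicate 3 was the highest of its line for 31 of the 59 genes and c2.11 replicate 1 the lowest for 24. WT replicate 1 was the highest WT library for 28. No such tally over all tested genes is given here, so no trait of the 59 is read from these numbers. The median SD of log2 CPM within a line was 0.19 in c2.11 and 0.18 in c2.5. It was 0.13 and 0.12 over 5653 other tested genes with line means in the same ranges. Those genes were not matched to the 59 in level within the ranges.

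The limits cut through a continuous range of levels. Of the 7599 genes that were scarce in WT and had a count in some library, 7334 reached 2 CPM in 0 of the 6 line libraries, and 79, 43, 43, 20 and 21 reached it in 1, 2, 3, 4 and 5 of them, beside the 59 that reached it in all 6. The chosen genes made up 0.160% of scarce genes with a WT mean above 0 and up to 0.25 CPM, and 1.54%, 4.75% and 7.58% of those with means up to 0.5, 0.75 and 1 CPM. Just inside the WT limit lay 8 genes with 20 counts in their highest WT library, among them Solyc04g074830.1, Solyc01g112190.3 and Solyc03g120860.2. Just outside it lay 7 genes with 21 counts, among them Solyc03g063550.1, Solyc04g015590.4 and Solyc05g012280.3. Just inside the line limit lay 4 genes with 41 counts in their lowest line library, among them Solyc07g007050.1, Solyc07g063500.4 and Solyc02g079520.3. Solyc02g083120.3, Solyc05g054890.4 and Solyc01g006055.1 fell just outside, with 40, 40 and 39 counts. These counts differ by less than counting error. WT replicate 1 alone kept out 37 further genes, with 1.04 to 2.43 CPM there (median 1.34 CPM), so that 96 genes met the limits without that library.

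The scaling of the libraries also bears on who belongs. TMM scaling (edgeR's trimmed mean method) gave factors of 1.05 to 1.08 to the line libraries and 0.857 to 0.911 to the WT libraries, and dividing by them lowers line values and raises WT values. On TMM-scaled CPM 38 genes met the same limits, all of them among the 59. Of the 21 others, 16 reached 1 CPM in a WT library and 6 fell below 2 CPM in a line library, with 1 gene doing both. Solyc08g079200.1 was among those lost, through its WT replicate 3 value. On total count scaling the median log2 change was 2.67 for the 59 genes and 0.29 for all tested genes.

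A direct test of c2.11 against c2.5 called 1 of the 59 genes. The rule set the same minimum on both lines and did not use the size of the difference between them. That minimum still left out genes high in 1 line and low in the other. How few of the 59 differed thus follows in part from the choice. In the edgeR fit over all tested genes, c2.11 minus c2.5 was called for 1 of the 59, beside 1.29% of all tested genes. It was called for 0.708% (40 of 5653) of the other genes with line means in the same ranges. Over the 59 genes the log2 difference ran from -0.92 to 0.59, with SEs of 0.12 to 0.55 (median 0.20). Its median size was 0.18, beside 0.12 over those other genes, which were not matched to the 59 in level within the ranges. It was below 0.5 in size for 55 of the 59 genes and at least 1 for 0 of them. In 27 genes the level was higher in c2.11 and in 32 lower, without regard to a test. An unadjusted p below 0.05 was reached by 6 of the 59 (10.2%). The shares were 14.4% of all tested genes and 11.3% of the other genes in the same ranges. The mean levels of the lines, as log2 CPM, correlated over the 59 genes with a Pearson r of 0.905 and a Spearman rho of 0.849, a description across genes that share libraries and the lower limit. A p that misses the threshold does not show that the lines are alike.

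**Figure D2:**
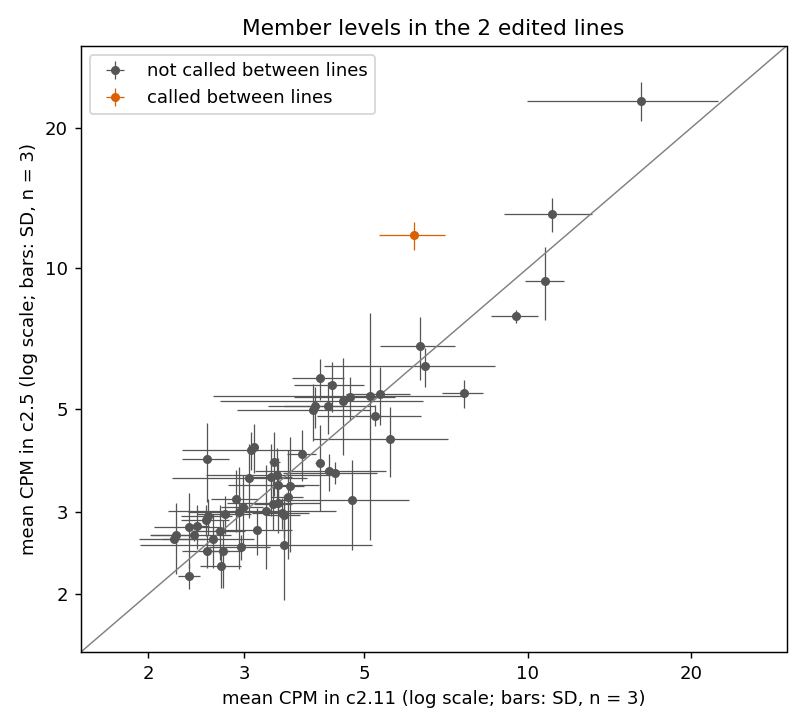
Mean CPM in c2.11 (horizontal, log scale) and in c2.5 (vertical, log scale) of the 59 genes, with SD bars over 3 libraries each and the line of equal levels. For 55 of the 59 the log2 difference is below 0.5 in size, and the gene called between the lines, at 6.17 CPM in c2.11 and 11.8 CPM in c2.5, lies above it.

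The called gene was Solyc01g008800.3 on chromosome 1. It had 5.50, 5.89 and 7.14 CPM in c2.11, 11.97, 12.5 and 10.9 CPM in c2.5, and 0.643, 0.593 and 0.745 CPM in WT. The 3 c2.11 libraries were all below the 3 c2.5 libraries, and both lines were above WT. The log2 difference of c2.11 minus c2.5 was -0.92 ± 0.12 (SE, edgeR adjusted p = 0.00314), and over the alternatives the adjusted p ran from 3.35e-05 to 0.0285.

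Solyc07g064990.3 on chromosome 7 leaned the other way. Its values were 7.18, 7.29 and 8.39 CPM in c2.11, 5.29, 5.81 and 5.09 CPM in c2.5, and 0.297, 0.0495 and 0.149 CPM in WT, with no overlap between the lines. The log2 difference of 0.51 ± 0.17 (SE) did not pass the threshold (edgeR adjusted p = 0.190), and it passed with the 6 line libraries fitted alone (edgeR adjusted p = 0.0396), a fit that called 2 of the 59 and 3.29% of all tested genes. The adjusted p was in a range of 0.0396 to 0.476 over the alternatives.

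The genes were spread over the 12 numbered chromosomes, as read from the digits of the identifiers. Chromosomes 1 and 6 held 8 each, 2 and 3 held 7 each, 9 held 6, 8 and 10 held 4 each, and 4, 5, 7, 11 and 12 held 3 each. None of the 513 genes numbered 00 was in the group. As a share of the genes scarce in WT with a count, they made up 0.505% on chromosome 4, the lowest of the 12, and 1.20% on chromosome 6, the highest. These shares rest on 3 and 8 genes, and their difference was not tested.

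**Figure D3:**
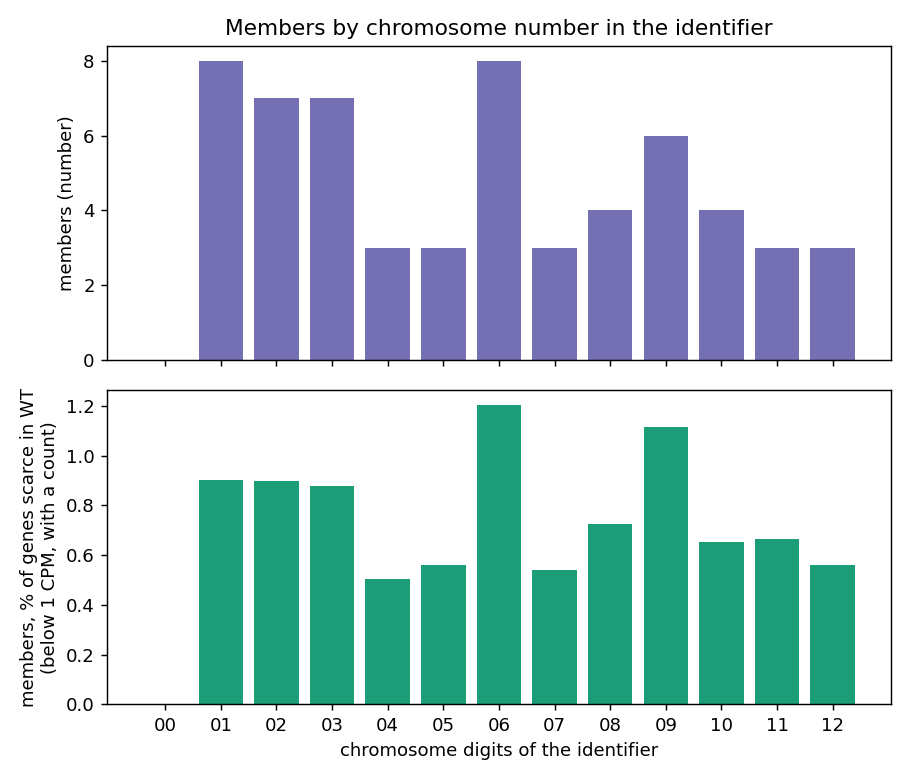
Number of the 59 genes by the chromosome digits of the identifier (upper panel), and the same as a percentage of genes below 1 CPM in each WT library with a count in some library (lower panel). Counts run from 3 to 8 over the 12 numbered chromosomes, and the share from 0.505% to 1.20%.

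Runs of neighbouring genes were not found. None lay within 5 listed genes of another, and the median step to the nearest other one was 148 listed genes. The spacing that 59 of 34075 listed genes would show by position alone was not worked out, so no lack of grouping is read from these values. Consecutive pairs within 20 listed genes numbered 4 and were singled out after their values were seen. The closest, Solyc08g079200.1 and Solyc08g079270.3, were 6 steps apart with 5 genes between them, of which 3 were tested and 0 called higher. Between Solyc08g074350.3 and Solyc08g074490.4 (11 steps), 4 of 8 tested genes were called higher. Between Solyc09g005570.3 and Solyc09g005730.4 (15 steps), 0 of 11 were, and between Solyc11g031950.1 and Solyc11g032120.2 (16 steps), 1 of 4. Over all tested genes 28.5% were called higher, and nothing is read from these small counts.

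The rule did not use the genes listed directly beside the 59. Of 75 tested genes adjacent to 1 of the 59, 28 (37.3%) were called higher and 18 (24.0%) lower in both lines against WT (edgeR, adjusted p below 0.05), beside 28.5% and 28.6% of all tested genes. With total count scaling 66.7% of these neighbours and 55.6% of all tested genes were called higher. Of the 75, 14 (18.7%) were called at least 2-fold higher, beside 7.43% of all tested genes. At least 2-fold lower calls numbered 3 (4.0%), beside 6.98% of all tested genes. The limit of 2-fold was chosen after the neighbours' values were seen. Within 5 listed genes on either side 38 of 353 (10.8%) were called at least 2-fold higher. Whether these shares differ from those of all tested genes was not tested. The 14 genes neighboured 13 of the 59, and 10 of the 59 had no tested gene beside them. The log2 changes of the 14 ran from 1.11 to 2.17 and WT means from 0.165 to 63.4 CPM. In 7 of the 14 the WT mean was below 3 CPM, and the share over all tested genes was not matched to the neighbours in level.

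Examples, chosen after their values were seen, were the neighbours of Solyc06g051250.1 and Solyc09g075350.4. Solyc06g051260.4, beside Solyc06g051250.1, averaged 43.8 CPM in c2.11, 42.7 CPM in c2.5 and 9.20 CPM in WT, a log2 change of 1.95 ± 0.11 (SE, edgeR adjusted p = 2.91e-08). Solyc09g075350.4 had a called gene on each side. Solyc09g075360.4 averaged 170.8 CPM in c2.11, 162 CPM in c2.5 and 63.4 CPM in WT, a log2 change of 1.12 ± 0.06 (edgeR adjusted p = 1.74e-08). Solyc09g075330.4 averaged 0.902 CPM in c2.11, 1.05 CPM in c2.5 and 0.248 CPM in WT, a log2 change of 1.67 ± 0.32 (edgeR adjusted p = 0.000671).

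Neighbours also went the other way. Solyc02g085760.2, beside Solyc02g085750.4, fell to 9.32 CPM in c2.11 and 9.34 CPM in c2.5, against 37.9 CPM in WT (log2 change -2.30 ± 0.09, SE, edgeR adjusted p = 1.08e-09). Of the 75 neighbours, 65 had a higher CPM in the lines than the gene they stood beside, and the median over the 75 was 25.9 CPM. How the counting treated strand and reads that map to several places is not stated, so counts of a scarce gene cannot be told apart from reads of an overlapping, antisense or near-identical one.

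**Figure D4:**
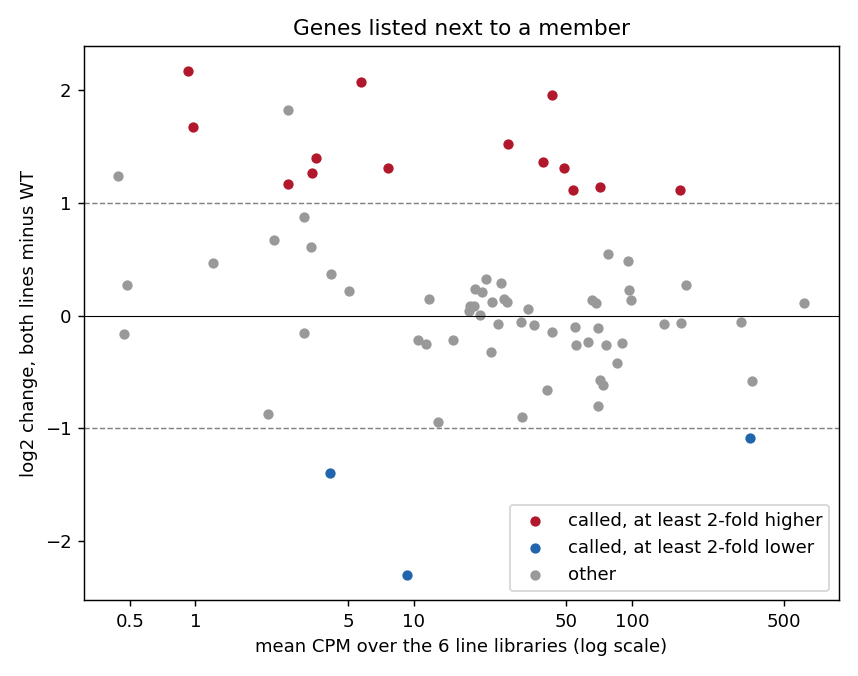
The 75 tested genes listed next to 1 of the 59 genes, by mean CPM over the 6 line libraries (horizontal, log scale) and log2 change of both lines minus WT (vertical, edgeR fit). Points above the upper dashed line and called number 14, points below the lower dashed line and called number 3.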

How the data were processed

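RNA of 9 libraries was sequenced as stranded mRNA libraries, per the labels' protocols. The deposited file holds raw whole-number counts per gene, not normalized. FastQC and featureCounts are among the tools that the submitters' processing notes list. No source used here names the aligner, the build, the annotation or the strand option, so the text has no coordinates. All columns were matched to samples by title.

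CPM were counts over the column total, and the genes were chosen by the limits of 1 and 2 CPM. Whole-table fits used edgeR 4.0.16 in R 4.3.3 (filterByExpr, TMM, robust quasi-likelihood test, all 9 libraries, Benjamini-Hochberg adjustment, threshold 0.05), and the SE is the log2 change over the square root of F. The exact Poisson interval (scipy 1.17.1, 95%) covers counting error only. Genes were ordered by the digits of their identifiers.

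The genes, the list of known identifiers and the tests were chosen with earlier results of these data known. Named genes were the 10 with the highest smaller line mean, the 3 nearest on each side of each limit (ties in table order), genes called between the lines, runs within 5 listed genes (0 found), and the 3 with the widest line spread. Alternatives (DESeq2 1.42.0, other scaling, filters and limits, the replicate number as a block, single libraries left out) are given in the closing section.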

Additional observations from a re-analysis of the deposited data

Results flagged for a closer look

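Solyc01g008800.3 differed between the lines in the direct contrast of c2.11 and c2.5. Its log2 difference (c2.11 minus c2.5) was -0.92 ± 0.12 (SE, edgeR adjusted p = 0.00314), with 3 of 3 c2.11 libraries below all 3 c2.5 libraries. Groups of 3 libraries are too small to look for single outlying libraries.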

How the results depend on the processing

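The number of genes, 59 as reported, rested on the limits: it was 38 on TMM-scaled CPM, 14 with a WT limit of 0.5 CPM, 323 with 2 CPM, 221 with a line limit of 1 CPM, 7 with 5 CPM, and 149 with limits on genotype means. Without single libraries, which loosens the rule, it ran from 60 to 96, and it was 96 without WT replicate 1. The number called between the lines was 1 under DESeq2 1.42.0, median-of-ratios factors, both other low-count filters, the replicate block, total count scaling and the removal of each library, and 2 with the 6 line libraries fitted alone, where 3.29% of all tested genes were called. The share of all tested genes was 2.28% under DESeq2 and 1.27% with median-of-ratios factors. It was 1.15% and 0.984% with the 2 filters, 1.12% with the replicate block and 1.25% with total count scaling. Without single libraries it ran from 0.357% (c2.5 replicate 1 left out) to 1.82% (WT replicate 1 left out). The share of adjacent genes called higher was 32.6% within 5 listed genes. It was 36.0% with the replicate block (all tested genes: 27.8%) and 66.7% with total count scaling (all tested genes: 55.6%). Without single libraries it ran from 31.6 to 36.8%. The share called at least 2-fold higher was 10.8% within 5 listed genes. It was 18.7% with the replicate block (all tested genes: 7.38%) and 21.3% with total count scaling (all tested genes: 11.5%). Without single libraries it ran from 14.5 to 19.7%. The shares of all tested genes called higher without single libraries are not given here. Total count scaling and the 2-fold share itself, with its alternatives, were chosen after seeing the data. The cause of these shifts was not tested. Same-numbered libraries deviated together with r of -0.26 to 0.24 and others with -0.29 to 0.36. These values show no pairing by number, and 3 libraries per genotype are too few to exclude one.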

Other observations

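Some genes met the limits in 1 line only. With WT and the other line below 1 CPM in each library, 5 genes had 2 CPM or more in each c2.11 library and 10 in each c2.5 library. These genes were picked for the difference, so their values are a description. Of the 15, 5 had no count in any WT library, all of them among the 10 of c2.5, whereas each of the 59 had counts in every WT library. The 10 genes summed to 6.09, 0.675 and 2.90 CPM in c2.11, to 41.2, 41.2 and 45.0 CPM in c2.5, and to 0.445, 0.198 and 0.199 CPM in WT. c2.11 replicate 2 had 7 of the 10 at 0, against 0 of the 10 in c2.11 replicate 1 and 2 of the 10 in c2.11 replicate 3, while the sums of the 3 c2.5 libraries lay close together.

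The 5 genes of c2.11 summed to 17.3, 15.7 and 25.1 CPM in c2.11, to 0.748, 1.503 and 1.63 CPM in c2.5, and to 1.19, 0.445 and 0.497 CPM in WT. The highest CPM were those of Solyc01g044365.1 on chromosome 1, singled out after its values were seen, with 5.85, 5.79 and 11.6 CPM in c2.11, 0 in each c2.5 library and at most 0.0990 CPM in WT. In the opposite direction, 62 genes had 2 CPM or more in each WT library and stayed below 1 CPM in each line library. That rule asks for 2 CPM in 3 libraries and the rule for the 59 genes asks for it in 6, so the numbers are not set against each other.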
